A study of Mus musculus with 4 samples.

Results

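The Cep genes are protein-coding genes named for the centrosome, the small organelle that organises microtubules in animal cells and that, in resting cells, anchors the primary cilium. A centrosome is built from a pair of centrioles embedded in a matrix of pericentriolar material. Each centriole is copied once per cell cycle under the kinase Plk4 with Stil and Sass6, the older one carries appendages that dock the cilium, and in differentiating muscle the microtubule-organising activity moves from the centrosome to the nuclear envelope. The members were chosen by name: protein-coding rows whose symbol is Cep followed by a number, with or without a closing l. This found 34 genes among 21900 protein-coding genes and 55573 genes in all. The family was taken up after the WT and KO values of these same libraries had been seen, with Cep295 as its example, so the differences between groups given here are a description, and no test of them is offered as evidence.

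Ribo-seq, the sequencing of mRNA fragments that ribosomes shield from RNase, was performed on primary myoblasts, proliferating muscle precursors grown from satellite cells, on day 2 of proliferation culture with FGF. The cells came from hind-limb muscle of 3-week-old mice, and elongation was stopped with cycloheximide in all 4 libraries. The WT group and the group with genotype eIF5A knockout (KO) had 2 libraries each. In the study's KO model, floxed eIF5A (eIF5A f/f) is removed after tamoxifen by CreERT2 expressed from Pax7, a satellite cell gene, so that cells without Pax7 keep the gene. The study describes its WT controls as Pax7 CreERT2/+ mice in one place and as Pax7 +/+;eIF5A f/f mice in another. It gives neither the number of animals behind each library nor whether animals were pooled, so the spread between libraries of a group may be technical.

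Values are RPKM, reads per kilobase of gene, which the deposited table scales so that the typical gene has the same level in each library. Each value corresponded to a whole number of reads, and the libraries held 642429 to 704006 reads. Protein-coding genes took 41.5% and 33.9% of reads in WT against 65.4% and 59.2% in the KO-labelled libraries. Eif5a, the targeted gene, had 50 and 73 reads in WT against 130 and 114 in the KO-labelled libraries (34.9 and 65.2 against 60.3 and 59.4 RPKM), so its footprints were not lower where the label says KO. WT replicate 1 stood apart: Myog, which drives myoblasts into differentiation, had 82 reads there and 3, 1 and 2 in the other libraries. WT replicate 2 differed less from KO replicate 2 (chi-square per degree of freedom 3.61) than from WT replicate 1 (6.94). The summed RPKM of 8 myoblast markers was 254 and 198 in WT against 100.3 and 121.7 in the KO-labelled libraries, that of 10 muscle differentiation genes was 320.2, 75.2, 43.2 and 43.3, and that of 12 proliferation genes was 37.4, 57.4, 112.5 and 67.7. Markers of other cells were present in all libraries. Fibroblast markers summed to 609 and 400.4 RPKM in WT against 977 and 468 in the KO-labelled libraries, and 4 endothelial markers to 102.2, 95.1, 130.8 and 105.5. The 4 immune markers summed to 28.1, 38.5, 23.9 and 24.6 RPKM, with Ptprc at 0 in WT replicate 2 and KO replicate 2. Among defining myoblast markers only Myf5 was at 0, in KO replicate 2, and among the differentiation genes Mymk and Mymx, which fuse myoblasts, were at 0 in all libraries but KO replicate 1. In such bulk samples fewer cells of a type and less RNA per cell cannot be told apart, and a footprint level holds both the amount of an mRNA and its translation, since no matched mRNA libraries were analysed here.

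The translation factor eIF5A is known to help ribosomes past runs of prolines, so the coding sequence around some of these runs is shown, with at least 1 run from each of 4 members that have them. A run of at least 3 consecutive proline codons was found in 6 of the 34 members, Cep295, Cep120, Cep164, Cep89, Cep131 and Cep126, and in 4344 of the 21709 protein-coding genes with a coding sequence. Lines give the sense strand 5′ to 3′, read from GENCODE vM21 transcripts on GRCm38, with the proline codons in capitals and 24 coding bases on each side.
Cep295, residues 215 to 217, chr9:15347031-15350861, minus strand, across 2 coding exons and the intron between them: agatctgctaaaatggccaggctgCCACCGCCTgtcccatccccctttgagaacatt
Cep164, residues 1856 to 1858, chr9:45770906-45770962, minus strand, 1 coding exon: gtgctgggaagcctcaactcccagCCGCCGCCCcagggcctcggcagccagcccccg
Cep164, residues 1946 to 1949, chr9:45769414-45769473, minus strand, 1 coding exon: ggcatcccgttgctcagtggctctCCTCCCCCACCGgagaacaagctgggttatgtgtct
Cep89, residues 36 to 38, chr7:35398032-35398088, plus strand, 1 coding exon: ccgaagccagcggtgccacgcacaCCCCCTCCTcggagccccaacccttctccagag
Cep131, residues 26 to 28, chr11:120083865-120083921, minus strand, 1 coding exon: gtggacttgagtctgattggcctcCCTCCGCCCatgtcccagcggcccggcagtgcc

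The stretches shown hold 3 prolines in Cep295, Cep89 and Cep131, and 3 and then 4 in Cep164. Not shown are a further run of 4 in Cep164, a further run of 3 in Cep89, a run of 3 in Cep126 and the runs of 5 and 3 in Cep120, of which the first is the longest of the family. Cep295, whose levels differed most between groups in absolute RPKM, has a single run of 3 prolines in a protein of 2460 residues. Over the 5 members with a run and a mean RPKM of at least 1, the median difference in log2(RPKM + 1), KO-labelled libraries minus WT, was -0.12, and over the 24 such members without a run it was 0.20, against 0.0003 over all 11363 genes tested. Cep164, with 3 runs, stood at -0.41 and Cep89, with 2, at 0.70. The positive values, those of Cep89 and Cep131 (0.30), rested on WT replicate 2, where both had 0 reads, and became -0.15 and -0.62 without it.

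Most members had few footprints. The 34 genes together held 460 and 292 reads in WT against 670 and 430 in the KO-labelled libraries. Cep170 and Cep295 made up 33.4% of all Cep reads, 3 members had under 10 reads over the 4 libraries, and 7 had no read in at least 1 library. As a share of protein-coding reads the family took 0.171% in WT replicate 1 (95% Wilson interval 0.156% to 0.187%), 0.134% in WT replicate 2 (0.120% to 0.150%), 0.146% in KO replicate 1 (0.135% to 0.157%) and 0.112% in KO replicate 2 (0.102% to 0.123%). The groups overlapped, at 0.153% ± 0.0260 in WT against 0.129% ± 0.0240 in the KO-labelled libraries (SD, n = 2), and as a share of all reads, small RNAs included, the order of the means turned (0.0582% ± 0.0180 and 0.0807% ± 0.0205). These intervals cover counting error only.

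**Figure D1:**
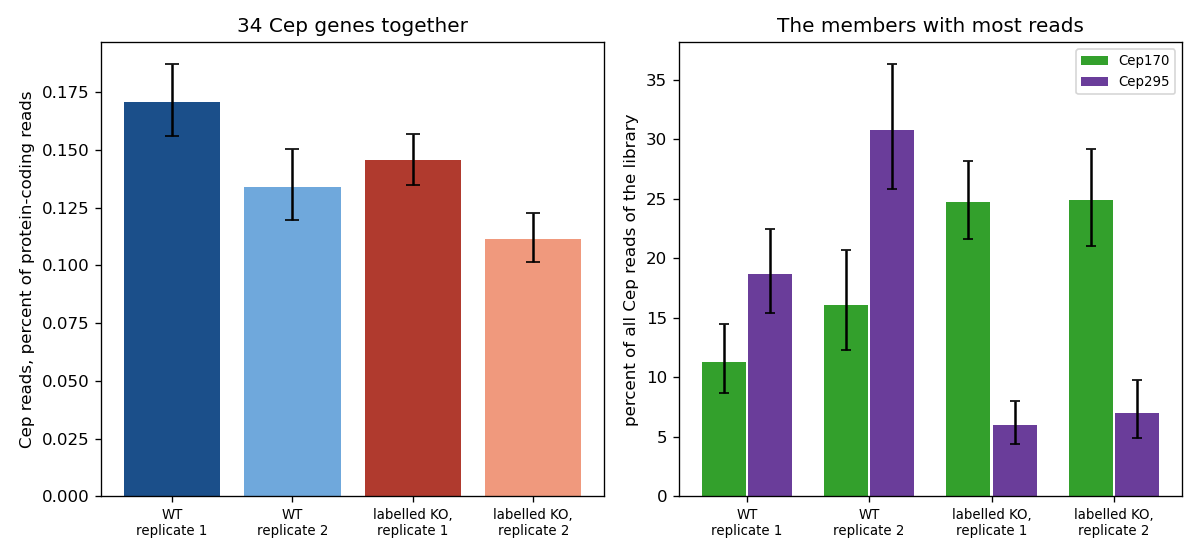
Left, Cep reads as a percent of protein-coding reads in each library, with 95% Wilson intervals; right, Cep170 and Cep295 reads as a percent of all Cep reads of the library, with the same intervals. The family's share overlapped between groups (0.134% and 0.171% in WT, 0.112% and 0.146% in the KO-labelled libraries), while Cep295 held 18.7% and 30.8% of Cep reads in WT against 5.97% and 6.98% in the KO-labelled libraries.

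The make-up of the family is given as a description, since Cep295 was the example with which the family was taken up. Cep295 gave 18.7% of Cep reads in WT replicate 1 (15.4% to 22.5%) and 30.8% in WT replicate 2 (25.8% to 36.3%). In KO replicates 1 and 2 it gave 5.97% (4.41% to 8.03%) and 6.98% (4.93% to 9.78%). Cep170 gave 11.3% (8.73% to 14.5%) and 16.1% (12.3% to 20.7%) in WT, and 24.8% (21.7% to 28.2%) and 24.9% (21.0% to 29.2%) in the KO-labelled libraries. Both are parts of one whole, so a lower share of one raises the other. The intervals cover counting error only, and for Cep295 those of the 2 WT libraries did not overlap each other. The highest Cep gene per kilobase was Cep295 in WT replicate 2 and Cep170 in both KO-labelled libraries.

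Of the 34 members, 29 had a mean RPKM of at least 1 and entered the limma fit over 11363 genes. Of these, Cep290, Cep97, Cep78, Cep44 and Cep41 had a mean under 1 in WT and passed only through the KO-labelled libraries, and none passed only through WT. None of the 29 had an adjusted p under 0.05 (Benjamini-Hochberg over all genes tested), where 0.106% of all genes did, and 2 had an unadjusted p under 0.05 (7.32% of all genes). At least 2-fold with an unadjusted p under 0.05, 1 member was higher in the KO-labelled libraries (Cep78; 2.67% of all genes) and 1 was lower (Cep295; 4.29% of all genes). Scaled to all reads, 5 members were higher by the same rule (Cep170, Cep19, Cep55, Cep76 and Cep78; 13.8% of all genes) and Cep295 was again the 1 lower (1.47% of all genes). With voom on the recovered reads, which weights genes by their depth, 1 of 31 members had an adjusted p under 0.05 (0.704% of all genes), and that was Cep295, 1 of 11 protein-coding genes among the 77 called. This call was kept without WT replicate 1 or WT replicate 2 and lost without KO replicate 1 or KO replicate 2, a check added after the data were seen. The contrast is the one the family was taken from, so nothing is read from these counts.

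Both libraries of one group lay beyond both of the other for 9 members higher in the KO-labelled libraries (20.1% of all genes) and for 7 lower (20.3% of all genes). Among the 9, Cep44, Cep78 and Cep97 passed the RPKM minimum only through the KO-labelled libraries, so their mean had to be higher there. When the values were scaled to all reads instead, which moved the median of all genes by 0.50 on the log2 scale, the counts became 12 higher (41.8% of all genes) and 2 lower (7.55%). The median difference of the 29 members was 0.11, beside 0.0003 for all genes tested and 0.05 for the 9877 protein-coding ones. The median gap between the libraries of a group was 0.46 in WT against 0.46 in the KO-labelled libraries, near the median gap of 0.57 between the group means of a member. For 11 of the 29 members the gap between group means was larger than both gaps within groups, and this held for 26.9% of all genes tested. Of the 29 members, 22 were higher in WT replicate 1, the library with the Myog reads, than in WT replicate 2 (48.8% of all genes). The part of the first library's differentiation in the Cep values was not tested. Without that library the median difference of the members was 0.47, and without WT replicate 2 it was -0.23.

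**Figure D2:**
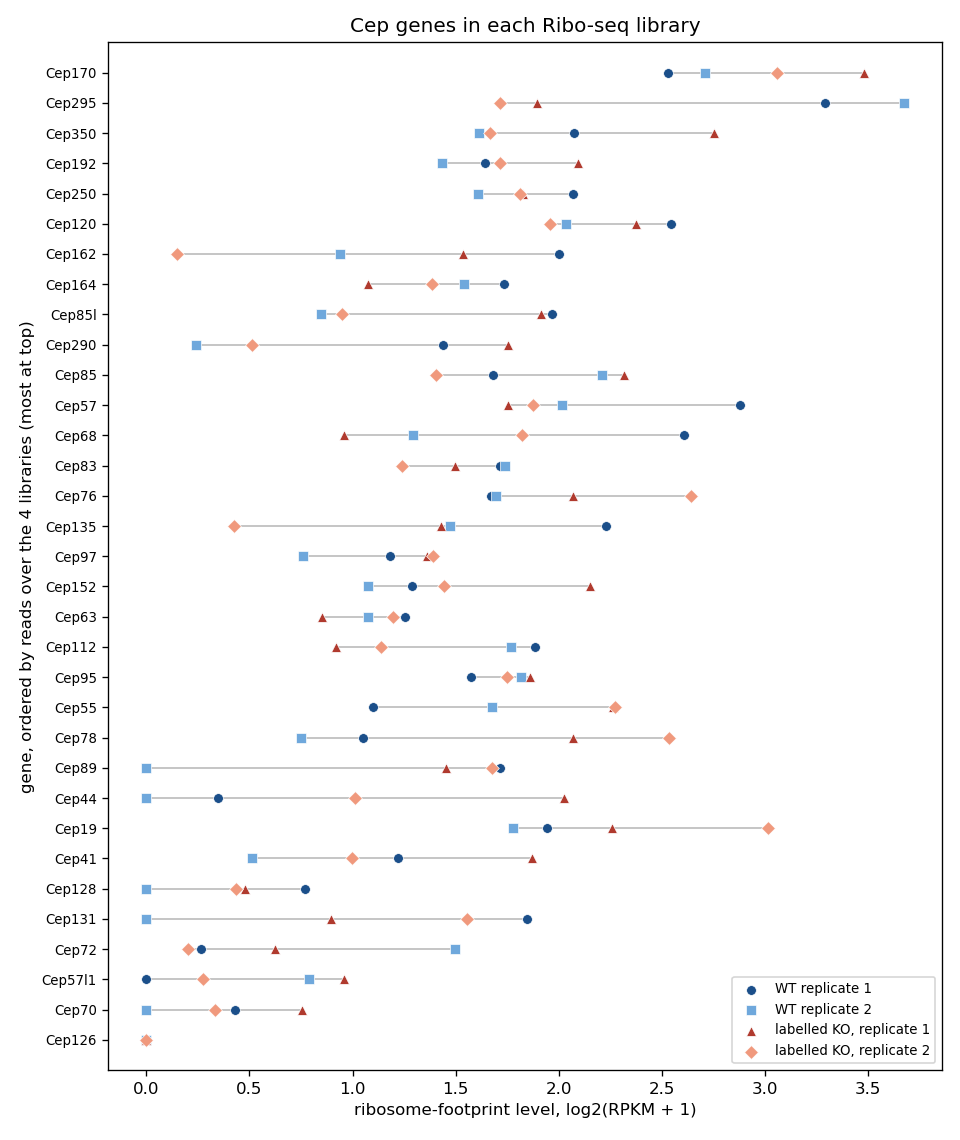
Level of 33 of the 34 Cep genes in log2(RPKM + 1) in the 4 libraries, ordered by reads from the most at the top; a grey line joins the lowest and highest library of a gene. Cep295 shows WT levels of 8.79 and 11.8 RPKM well to the right of 2.72 and 2.29 in the KO-labelled libraries, while for Cep250, Cep120 and Cep85l the groups interleave.

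Among the 12 members that act in building centrioles, 11 were tested. In both KO-labelled libraries 3 were lower than in both of WT (20.3% of all genes) and 5 higher (20.1%). The median log2 difference of the 11 was -0.09. Cep295 (ENSMUSG00000046111), which newborn centrioles need to elongate and to turn into centrosomes, lies on chr9:15316915-15357788 of GRCm38, minus strand. It had 8.79 and 11.8 RPKM in WT replicates 1 and 2, from 86 and 90 reads, and 2.72 and 2.29 RPKM in the KO-labelled libraries, from 40 and 30 reads. Both WT libraries were well above both others, at means of 10.3 ± 2.11 and 2.50 ± 0.303 RPKM (SD, n = 2), a 4.11-fold lower level in the KO-labelled libraries. On the log2(RPKM + 1) scale, which understates folds of low genes, the difference was -1.68 ± 0.37 (SE; 95% interval -2.59 to -0.76). It was -1.87 without WT replicate 1, where Myog was high, and -1.18 when values were scaled to all reads. Reads summed over a group gave a WT level 4.01 times that of the KO-labelled libraries, with a counting interval of 3.03 to 5.37.

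The gene model of Cep295 is 16238 bases long, of which the longest coding sequence fills 45.4%, and the table does not say where in it the reads lay. On the opposite strand its exons overlap the antisense gene Gm16568 by 1765 bases, the pseudogenes Gm48141 and Gm48142, each with no read, and Taf1d by 77 bases. Taf1d held 70 reads of its own over the 4 libraries. Whether the authors' counting used strand was not stated, so reads of Cep295 and of these genes cannot be fully told apart.

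Cep135, which links the cartwheel at the centriole's core to its microtubules, had 3.69 and 1.77 RPKM in WT against 1.69 and 0.344 in the KO-labelled libraries. Cep57, a scaffold of the inner pericentriolar material, had 6.35 and 3.05 against 2.37 and 2.67 RPKM. Both were lower in each KO-labelled library, but WT replicate 2 lay close to the nearest of them, and the intervals of the differences held 0 (-0.92 ± 0.62 and -0.63 ± 0.45, SE).

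Cep192 and Cep152 bring Plk4 to the parent centriole. Cep192 had 2.13 and 1.70 RPKM in WT against 3.27 and 2.28 in the KO-labelled libraries. For Cep152 the values were 1.44 and 1.10 in WT, from 5 and 3 reads, and 3.44 and 1.72, from 18 and 8 reads. Each was higher in both KO-labelled libraries, by 0.37 ± 0.43 and 0.62 ± 0.52 on the log2 scale (SE). Cep63, the partner of Cep152, did not follow: it had 1.38 and 1.11 RPKM in WT against 0.804 and 1.29 in the KO-labelled libraries, which overlap, and its difference of -0.14 became 0.18 when scaled to all reads.

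Cep76 and Cep97 restrain centrioles, the first by limiting extra rounds of copying and the second by capping the growing end together with Ccp110. Cep76 had 2.19 and 2.24 RPKM in WT against 3.20 and 5.23 in the KO-labelled libraries, from 5, 4, 11 and 16 reads. Cep97 had 1.27 and 0.695 against 1.56 and 1.62 RPKM, from 7, 3, 13 and 12 reads. Both were higher in each KO-labelled library, with intervals that held 0 (-0.34 to 1.68 and -1.04 to 1.85).

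Cep120, which promotes centriole elongation, had 4.84 and 3.09 RPKM in WT against 4.18 and 2.89 in the KO-labelled libraries. Cep85, a Stil-binding protein, had 2.20 and 3.63 against 3.98 and 1.64 RPKM. For both the groups overlapped, and the small negative differences (-0.12 and -0.09) turned positive when scaled to all reads (0.35 and 0.37). Of the 2 remaining members of this group, Cep44 had 1 and 0 reads in WT against 17 and 5 in the KO-labelled libraries, and its summed read level was 13.8 times higher with a counting interval of 2.23 to 569, while Cep57l1 had 8 reads in all and was not tested.

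The 15 members of the appendages, the transition zone and the cilium included 12 that were tested. With the groups apart, 3 were lower (20.3% of all genes) and 3 higher (20.1%), and the median difference of the 12 was 0.33. Cep170 (ENSMUSG00000057335; chr1:176733653-176814067, minus strand), a subdistal appendage protein that binds microtubules, held the most reads of the family. It had 4.78 and 5.53 RPKM in WT, from 52 and 47 reads, and 10.1 and 7.34 in the KO-labelled libraries, from 166 and 107 reads. Both KO-labelled libraries were above both of WT, at means of 8.74 ± 1.98 and 5.15 ± 0.529 RPKM (SD, n = 2), and the difference of 0.65 had a 95% interval of -0.27 to 1.58. It stayed positive in each limma alternative and in voom, between 0.44 and 1.19.

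Cep78, a centriolar protein of photoreceptor and other cilia (chr19:15955773-15984989, minus strand), had 1.07 and 0.684 RPKM in WT against 3.20 and 4.79 in the KO-labelled libraries. These rested on 2, 1, 9 and 12 reads, so that both WT libraries were under the floor of 3 reads and the gene passed the RPKM minimum only through the KO-labelled libraries. With 1 added to each RPKM its groups lay at least 2-fold apart, as they did for 1.21% of all genes in its direction and, in the other, for Cep295 and 2.5% of all genes. A gene that passed in this way had to be higher in the KO-labelled libraries, so its values are given as a description. Its summed read level was 4.38 times higher in the KO-labelled libraries, with a counting interval of 1.31 to 23.0, and its log2 difference was 1.40 ± 0.47 (SE).

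The distal appendages dock the mother centriole at the membrane. Cep164, which recruits the kinase Ttbk2 there, had 2.32 and 1.91 RPKM in WT against 1.10 and 1.61 in the KO-labelled libraries. Cep83, at the appendage base, had 2.28 and 2.34 against 1.82 and 1.36 RPKM. Both were lower in each KO-labelled library, by differences of -0.41 and -0.36 that moved to -0.03 and 0.04 when scaled to all reads. Cep89, of the same structure, had 7 and 0 reads in WT against 8 and 9 in the KO-labelled libraries.

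Cep350, a large centriolar protein that acts with Cep19 and Cep78, had 3.21 and 2.06 RPKM in WT against 5.74 and 2.17 in the KO-labelled libraries. Cep290, a transition zone protein mutated in ciliopathies, had 1.71 and 0.183 against 2.37 and 0.426 RPKM. Cep162, which helps assemble the transition zone, had 3.00 and 0.914 against 1.90 and 0.107. In each of these 3 long genes the first replicate of a group was above the second, the groups overlapped, and Cep290 in WT replicate 2 and Cep162 in KO replicate 2 rested on 1 read each. The other members of this group held no more than 12 reads in any library: Cep19 had 2.84 and 2.42 RPKM in WT against 3.78 and 7.07 in the KO-labelled libraries, Cep41 and Cep131 overlapped, Cep72 and Cep128 fell under the minimum, and Cep126 had no read in any library.

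Among the 4 linker and midbody genes, Cep250, which tethers the paired centrioles, had 3.20 and 2.05 RPKM in WT against 2.55 and 2.51 in the KO-labelled libraries. Cep68, of the same linker, had 5.09 and 1.45 against 0.940 and 2.53 RPKM. Both KO-labelled libraries lay between the WT libraries for Cep250, and the groups overlapped for Cep68. Cep55, which acts in the last cut of cell division at the midbody, had 2 and 3 reads in WT against 10 and 9 in the KO-labelled libraries (1.14, 2.19, 3.80 and 3.84 RPKM), and Cep70 had 5 reads in all and was not tested. Of the 3 members without an assigned role, Cep85l had 2.91 and 0.797 RPKM in WT against 2.76 and 0.930 in the KO-labelled libraries, which is nearly the same pair of levels in each group. Cep112 was lower in both KO-labelled libraries (2.69, 2.41, 0.893 and 1.20 RPKM) and Cep95 overlapped.

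**Figure D3:**
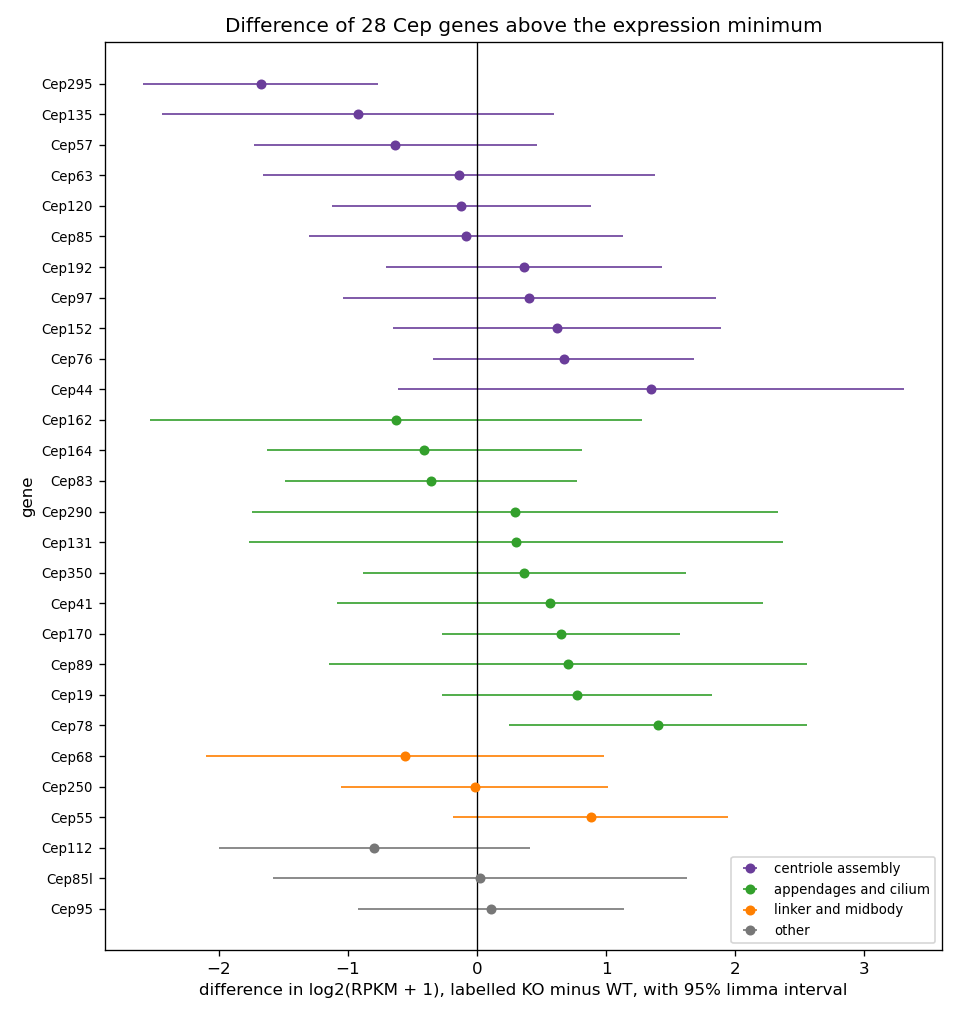
Difference in log2(RPKM + 1), KO-labelled libraries minus WT, for 28 of the 29 tested Cep genes, coloured by role, with 95% limma intervals. The interval lies wholly below 0 for Cep295 (-2.59 to -0.76) and wholly above 0 for Cep78 (0.25 to 2.55), and holds 0 for the others plotted.

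The members shared sequence features that their names did not use. Their proteins had a median of 841.5 residues, against 393 over protein-coding genes, and 37.2% of residues were leucine, glutamate, lysine or glutamine, the residues that dominate coiled coils, against 26.7%. This share was above the protein-coding median in 33 of 34 members, with Cep192 at 25.4% the exception and Cep250 highest at 49.7%. Prolines made up a median of 4.43% of residues against 5.27%. Coding GC content had a median of 46.8% (38.8% in Cep290 to 60.8% in Cep131) against 51.8%, and 27 of 34 members lay below the protein-coding median.

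In these libraries the values moved with GC content. Over 9869 protein-coding genes tested, the difference between groups ran against coding GC (Spearman's rho -0.36), so that genes of low GC tended to be higher in the KO-labelled libraries. Over the 29 members the same rho was 0.12, a description over genes that share the 4 libraries. Among the 2658 tested genes within the middle range of the members' coding GC (45.3% to 51.1%) the median difference was 0.24, above the 0.11 of the members. Cep295, at 44.3% coding GC, lay on the other side of 0, and with the trend in GC and coding length removed its difference was -1.83 ± 0.42 (SE). The same correction moved the differences of the 28 tested members named here by -0.33 (Cep57) to 0.42 (Cep131) and changed the sign of 3 that lay near 0, Cep250 (0.32), Cep85l (-0.22) and Cep95 (-0.13).

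**Figure D4:**
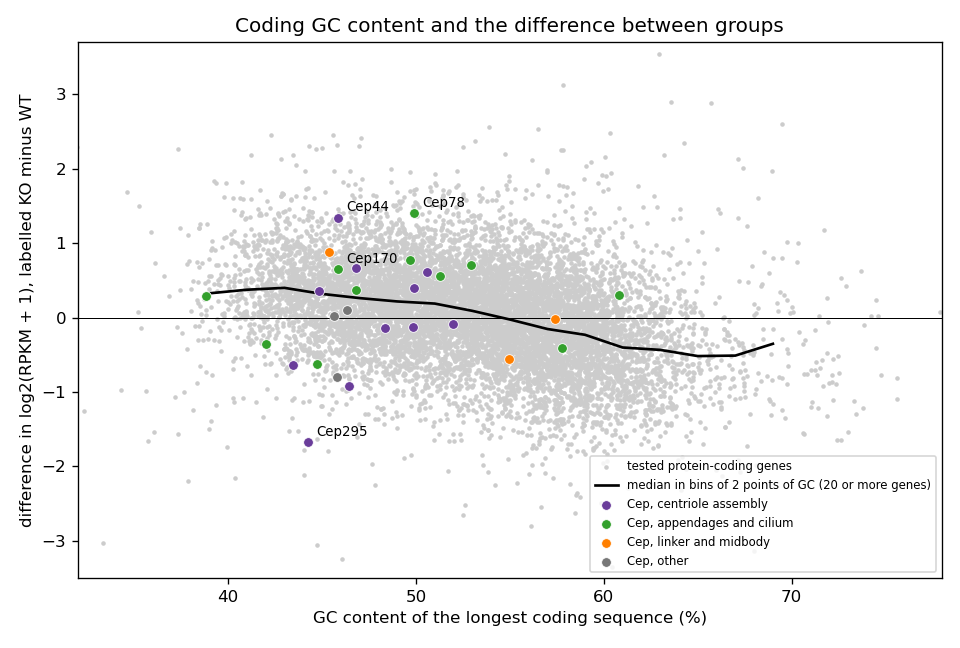
Coding GC content in percent against the difference in log2(RPKM + 1), KO-labelled libraries minus WT, for tested protein-coding genes (grey), their median in bins (black line) and the Cep genes (coloured by role). The line falls as GC rises (rho -0.36), and Cep295 at 44.3% GC lies at -1.68, far under the line.

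Promoters, taken as 250 bases before to 50 after a RefSeq start on GRCm38, were found for 29 of the 34 members. Each motif was searched on both strands, and a match is a description of the letters only. The E2F-type motif TTCCCGC was in 9 members, Cep295, Cep170, Cep152, Cep57, Cep44, Cep112, Cep41, Cep128 and Cep70, and in 7.06% of 16571 protein-coding genes, whereas TTGGCGC was in 0 members and 3.73% of genes. The cell-cycle homology region TTTGAA was in 9 members (17.7% of genes), its variant TTTAAA in 6 (13.5%) and CCAAT in 15 (42.1%). Cep295 and Cep112 had TTCCCGC and TTTGAA in the same promoter, while Cep170 had them in separate promoters.

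Other centrosome genes were listed by role and not by how they moved, though with earlier results of these libraries known. None of 18 tested centriole duplication partners, 20 genes of the pericentriolar material or 23 cilium and satellite partners had an adjusted p under 0.05 in limma or in voom, and 1, 1 and 0 had an unadjusted p under 0.05 in limma (7.32% of all genes). With the groups apart, 6, 6 and 7 were higher (20.1% of all genes) and 1, 3 and 3 lower (20.3%). The medians were 0.23, 0.17 and 0.29. They stand beside 0.05 for all tested protein-coding genes and 0.24 for those within the middle range of the members' coding GC. The core copying factors were near the detection limit: Plk4 had 2 and 0 reads in WT against 4 and 3 in the KO-labelled libraries, Sass6 had 0 and 1 against 6 and 8, and Stil had 0 and 0 against 8 and 4. A count of 0 here allows up to 3 reads.

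Of the partners with most reads, Cetn3, a calcium-binding centrin of centrioles, had 5.86 and 13.0 RPKM in WT against 22.0 and 13.5 in the KO-labelled libraries. Cntln, a linker protein, had 5.84 and 8.97 against 3.10 and 2.96 RPKM. Cetn3 was higher in both KO-labelled libraries (0.90 ± 0.51, SE), and Cntln was the 1 duplication partner that was lower with its groups apart (-1.03 ± 0.38, SE).

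In the pericentriolar material, Ckap5, a microtubule polymerase, had 5.79 and 8.08 RPKM in WT against 16.3 and 9.29 in the KO-labelled libraries, and Tacc1, which works with it at the centrosome, had 11.0 and 5.70 against 5.09 and 4.36. Ckap5 was higher and Tacc1 lower with the groups apart. Pcnt, the main scaffold of this matrix, had 1.77 and 1.92 against 3.45 and 1.43 RPKM. Cdk5rap2, which anchors the nucleating complexes, had 2.17 and 2.45 against 3.22 and 2.19. Both scaffolds overlapped between groups, with differences of 0.21 and 0.15. Pcm1, the organiser of centriolar satellites, had 12.0 and 6.83 RPKM in WT against 18.5 and 7.80 in the KO-labelled libraries, and the satellite ligase Mib1 had 9.71 and 10.5 against 6.25 and 10.8. Ccp110, the capping partner of Cep97, had 2.21 and 1.29 against 1.74 and 0.600 RPKM, and these 3 genes overlapped as well.

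Since centrosome genes follow the cell cycle, the proliferation genes are set beside them. None of the 12 had an adjusted p under 0.05 in limma or in voom and 2 had an unadjusted p under 0.05 in limma (7.32% of all genes). In both KO-labelled libraries 8 were higher than in both of WT (20.1% of all genes) and none lower (20.3%). The median difference of the 12 was 0.96, against 0.11 for the Cep members. Mki67, a marker of cycling cells, had 9.23 and 4.22 RPKM in WT against 11.4 and 3.81 in the KO-labelled libraries, which overlap. Of 7 tested muscle differentiation genes 5 were lower with the groups apart (20.3% of all genes), at a median of -1.45. Myod1, the myoblast determination factor, had 139.9 and 117.5 RPKM in WT against 48.6 and 79.8 in the KO-labelled libraries. Whether cell state bears on the Cep differences was not tested.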

How the data were processed

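Ribo-seq was performed by the authors on primary myoblasts, with 2 libraries per group, placed in groups by the genotype label. Per the study's methods the authors removed rRNA and tRNA reads, aligned the rest with TopHat2 and counted genes with HTSeq on mouse Ensembl models; versions and strand use are not given in the sources used here. The values deposited by the authors are RPKM for 55573 genes. RPKM times gene length, divided by the smallest such product of a library, gave whole reads (within 0.01) for 100.0% of values; the implied denominators (602863, 471136, 906990 and 807705) carry size factors of 0.912, 0.713, 1.37 and 1.22, which hides any change common to most genes. A floor of 3 reads equals 4.98, 6.37, 3.31 and 3.71 RPKM for a gene of 1 kb.

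limma 3.58.1 (R 4.3.3, eBayes with trend) was fitted on log2(RPKM + 1) for every gene whose mean RPKM was 1 or more. The p-values were two-sided, with Benjamini-Hochberg adjustment at 0.05. The fit was also run on simulated data, whose changed genes had more reads than all members but Cep170 and Cep295. That run does not bear on most members. An exact permutation test of 2 against 2 cannot go below 0.333. The members and gene lists were chosen with earlier results of these data known. Every member is in the counts, but 1 is not reported here by name or plotted; values in each library are given for Cep295, the 20 members with most reads and any other whose groups lay at least 2-fold apart, with further values chosen after they were seen. Partner genes named are the 2 with most reads of each list and 7 fixed ones. Coding features were taken from each gene's longest reading frame in GENCODE vM21, where 99.8% of the table's identifiers were found. Alternatives were a pseudocount of 0.1, other filters and scalings, a replicate block, voom, removal of the trend in GC and length, and leaving out each library. Counting intervals are exact binomial intervals at 95%.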

Additional observations from a re-analysis of the deposited data

How the results depend on the processing

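The RPKM are shallow for these genes: with a minimum mean RPKM of 5, 3 members remained, 1 past fold and p and 3 with groups apart, at a median difference of -0.92 (duplication partners 0.90). Scaled to all reads, members past fold and p numbered 6, and the medians were 0.54 for members, 0.63, 0.61 and 0.86 for duplication, pericentriolar and cilium partners and 1.52 for proliferation, all beside a shift of 0.50 in all genes. The Cep share differed by -0.0239 points of protein-coding reads and by 0.0225 points of all reads. With voom 1 member was called (0 to 1 when each library was also left out), and duplication and cilium partners had medians of 0.73 and 0.37. Cilium partners had 0.34 with a pseudocount of 0.1, 0.21 scaled to protein-coding reads and 0.12 once the trend in GC and length was removed, alone or with the replicate block. The replicate block left 2 members past fold and p, called none and gave Cep295 -1.68. Same-numbered libraries did not deviate together (r = 0.057 over 11363 genes, from 2 pairs). From so few libraries this cannot show whether the numbers pair them. All genes called numbered 12 without the block and 0 with it, and with voom 77.

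Leaving out each library gave 1 to 3 members past fold and p, 19 to 25 apart, against 16 with all, a member median of -0.23 to 0.47 and a share difference of -0.0423 to -0.00552 points. With 1 library left in a group, the groups lie apart more easily for any gene. The share over all genes is not given for these fits, so nothing is read from either count. For pericentriolar partners the median ran from -0.14 (without KO replicate 1) to 0.35. For duplication partners it ran from -0.04 to 0.32 and for cilium partners from 0.084 to 0.29. A lone library was assumed to vary like the others. Of 20 members given in every library, 10 kept the sign of their difference in each limma and voom fit of all libraries or of 3 in limma, Cep295 (-2.02 to -1.18) and Cep170 (0.44 to 1.19) among them. The cause of these shifts was not tested.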

Other observations

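Some centrosome genes lie outside the naming rule although their names or older symbols hold Cep; they were looked up after the members' values were seen. Cep170b, a paralog of Cep170, had 12.2 and 7.16 RPKM in WT against 2.07 and 6.65 in the KO-labelled libraries, from 59, 27, 15 and 43 reads. Its groups were apart in the direction opposite to that of Cep170, with WT replicate 2 close above KO replicate 2, at a log2 difference of -1.10 ± 0.56 (SE). Nckap5l, once named Cep169, which binds microtubules, had 14.6 and 3.82 RPKM in WT against 2.87 and 1.73 in the KO-labelled libraries, and its highest value was in WT replicate 1, the library with the Myog reads. Haus2, once Cep27, a subunit of the augmin complex, had 1.55 and 3.30 RPKM in WT against 7.19 and 4.62 in the KO-labelled libraries, from 3, 5, 21 and 12 reads. Cntrl, centriolin, overlapped between groups (3.91, 1.46, 2.81 and 1.21 RPKM). Cep295nl, a gene named for its likeness to Cep295, had 0, 1, 5 and 0 reads. Nckap5l and Haus2 also had their groups apart, and none of the tested genes among these had an adjusted p under 0.05 in limma or in voom, nor an unadjusted p under 0.05 in limma.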
